A study of Mus musculus with 8 samples.

Results

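Foxk1 is a forkhead box transcription factor, and dense clusters of its binding peaks in mouse embryonic fibroblasts (MEFs) are described here. Summits on chromosomes 1 to 19 were sorted, neighbours less than 5000 bp apart were joined, and every peak in a cluster of 5 or more summits was taken as a member. Members were thus chosen by the distances between summits, not by their signal. This gave 127 dense clusters with 738 peaks, 2.60% of the 28363 autosomal peaks and part of a list of 28933. Chromatin came from untreated MEFs, fibroblasts cultured from mouse embryos, grown in DMEM. Of the 8 libraries, 3 were pulled down with antibody to Foxk1, 3 with IgG, and 2 were input without antibody. The list compares Foxk1 with input on mm9 and gives 1 signal value and 1 q-value per peak, so no value below carries a replicate error and no test over samples was possible. No IgG value was used, so Foxk1 enrichment and enrichment that IgG would also give cannot be told apart. The labels name no genotype, strain or embryo age.

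Forkhead proteins bind DNA through a winged-helix domain, and many of them recognise sites built around GTAAACA. Foxk1 is known as a repressor that recruits the Sin3 complex and restrains autophagy genes, and as a regulator of glycolysis. Regulatory regions of active genes often hold several binding sites within a few kilobases, which a peak list shows as neighbouring summits.

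The positions chose the members, so number, span and spacing are given as a description. Clusters of 5 summits numbered 65, clusters of 6 numbered 40, and 22 held 7 or more. The largest held 11 summits, 3 held 9, and 9 each held 8 and 7. Just outside the limit lay 268 clusters of 4 summits. The dense clusters were 0.583% of the 21792 clusters of any size, counting the 17080 peaks without a neighbour as clusters of 1.

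From first to last summit the dense clusters measured 2.58 to 17.5 kb, with a median of 8.69 kb, and together they spanned 1.14 Mb. More summits did not always mean a longer stretch: the shortest cluster of 7 or more measured 3.71 kb, and the longest cluster of 6 measured 17.5 kb. Across the 127 clusters, Spearman's rho between summits and span was 0.37. The 460 bp bodies of the peaks covered a median of 28.0% of a cluster, from 14.9% to 75.6%. All peaks in the list have this same width, so the covered share follows from the number and spacing of summits. It does not show whether enrichment continued between them.

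**Figure D1:**
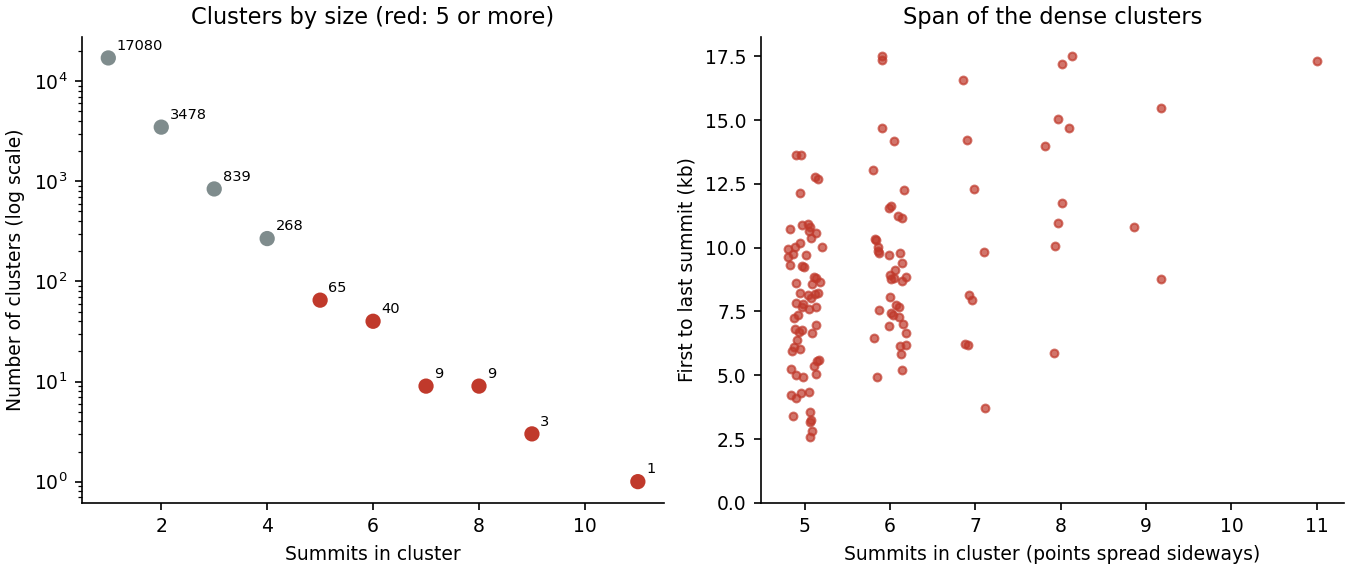
Left, number of clusters (log axis) against summits per cluster, with dense clusters in red; right, distance from first to last summit in kb for each of the 127 dense clusters, points spread sideways. The number falls from 65 clusters of 5 to 1 cluster of 11, and spans overlap widely between sizes.

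The 611 steps between neighbouring summits inside dense clusters had a median of 1415 bp (25th to 75th percentile 769.5 to 2804 bp). In clusters of 2 to 4 summits the 5960 steps had a median of 1456 bp. Steps shorter than the peak width, where neighbouring peaks overlap, made up 9.33% in dense clusters and 11.6% in the smaller ones. They occurred in 45 of the 127 dense clusters. Both sets of steps are cut off at 5000 bp by the joining rule, so little can be read from their likeness. The largest step inside was 4992 bp, and the smallest distance from a dense cluster to the next summit outside was 5066 bp. Of the 127 clusters, 13 had such a summit within 6000 bp. At their nearer side, dense clusters lay a median of 13.5 kb from the next summit, against 17.0 kb for clusters of 2 to 4 and 22.7 kb for single peaks.

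Peaks in dense clusters had somewhat higher signal values than the list as a whole. The signal value is the authors' own per-peak measure of Foxk1 against input, with no stated scale. Its median was 19.4 over the 738 members, 17.9 over all autosomal peaks, 18.5 in clusters of 2 to 4 and 17.4 for single peaks. Among members the 25th and 75th percentiles were 13.9 and 31.8, so the values largely overlapped those of other peaks, and 44.7% of members lay below the autosomal median. The lowest member, at 11.34, stood at the floor of the list. The member median was above the median of all peaks on the same chromosome on 14 of the 18 autosomes with a dense cluster.

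The difference was clearer among strong peaks. Signal values of 50 or more were found for 85 members, or 11.5%, against 8.05% of all autosomal peaks. The share was 7.20% for single peaks, 9.10%, 9.18% and 9.70% in clusters of 2, 3 and 4, and 11.1%, 12.1% and 11.6% in clusters of 5, 6 and 7 or more. It was thus lowest for single peaks and did not differ in a steady order above 5 summits. Values of 100 or more were found for 19 members (2.57%, against 1.5% of all), and the lowest deposited q-value, 0.00014, was given to 123 members (16.7%, against 12.4%). Of the 425 autosomal peaks of at least 100, 4.47% lay in dense clusters, and of the 58 of at least 200, 3 did. Peaks are not replicates, and these differences were not tested.

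**Figure D2:**
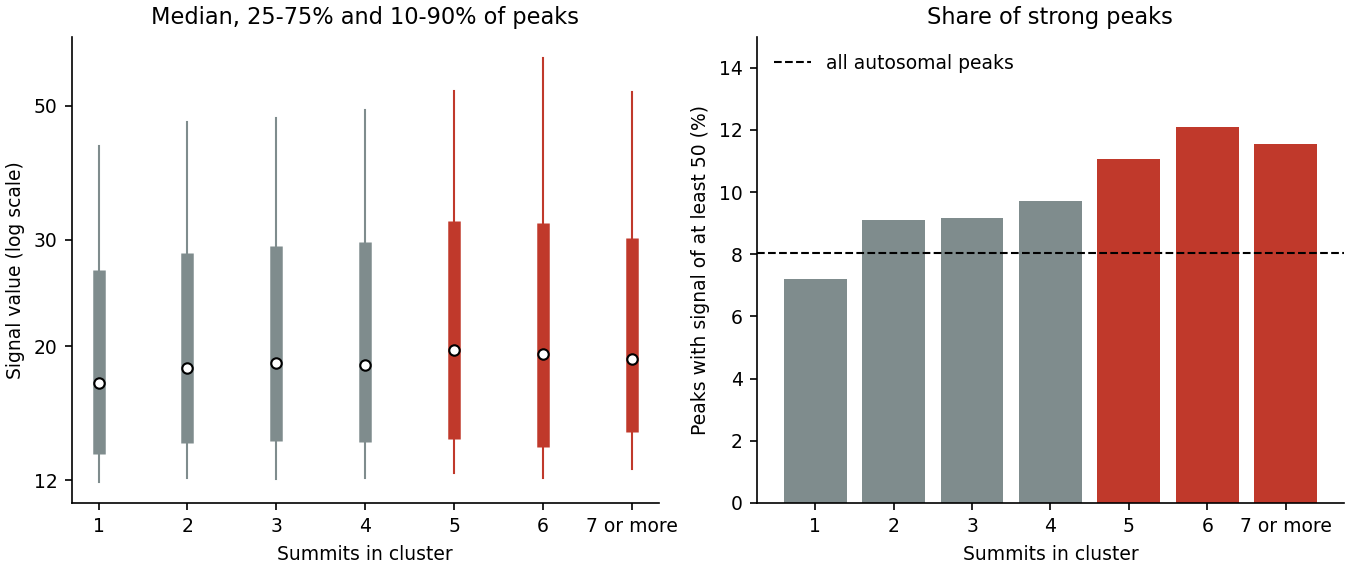
Left, signal value (log axis) of peaks by the number of summits in their cluster, with the median as a circle, the 25th to 75th percentile as a thick line and the 10th to 90th as a thin line; right, percent of peaks at a signal value of 50 or more, with all autosomal peaks (8.05%) as a dashed line. Dense clusters, in red, lie at 11.1% to 12.1%, above the 7.20% of single peaks, while the middle ranges overlap.

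Within a dense cluster the signal was unequal, which was not particular to dense clusters. The highest peak was a median of 1.54 times the second, against 1.61, 1.51 and 1.56 in clusters of 4, 3 and 2. The highest peak had a median of 49.3 over the 127 clusters (15.6 to 276), and the second highest a median of 30.5. A highest peak of at least 50 was found in 61 clusters (48.0%, against 33.6% of clusters of 4 and 10.1% of clusters of any size). That share grows with the number of peaks drawn on, as does the highest of any larger group. The remaining 611 members had a median of 17.1. Peaks other than the highest had medians of 16.2, 15.3 and 14.5 in clusters of 4, 3 and 2. Taking out the highest lowers a median less where a cluster holds more peaks, so this order was partly fixed in advance. Single peaks, with a median of 17.4, had none taken out. The highest peak held a median of 34.6% of its cluster's summed signal, and over 50% in 15 clusters. In 66 clusters no peak reached 50, and in 21 none reached 30. Conversely, 19 clusters held 2 or more peaks of at least 50, and 4 held 3 or more.

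Signal was also compared by the place of a peak in its cluster. First and last peaks had a median of 19.7 and inner peaks one of 19.2, and 11.4% of the former and 11.6% of the latter were at 50 or more. At 100 or more were 9 of the 254 first or last peaks (3.54%) and 10 of the 484 inner ones (2.07%). The highest peak was the first or last in 45 clusters (35.4%), and 34.4% of all members were first or last. Companions of the highest peak had medians of 16.2 within 500 bp of it (26 peaks), 17.2 at 500 to 1000 bp (69 peaks), 17.4 at 1000 to 2000 bp (93 peaks) and 16.5 at 2000 to 5000 bp (219 peaks). At 5000 to 10000 bp the median was 18.6 (166 peaks), and beyond 10000 bp it was 14.4 (38 peaks in 22 clusters). The medians showed no decline with distance from the highest peak up to 10000 bp. The share at 50 or more was 7.69% within 500 bp (2 peaks), and 2.90%, 3.23%, 5.02% and 3.61% in the next ranges up to 10000 bp. The ranges draw on different clusters. Summed signal per cluster ran from 78.1 to 382, with a median of 143, and the members held 2.97% of all autosomal signal with 2.60% of the peaks.

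The loci of the largest clusters come next. Coordinates are 1-based on mm9 and run from the start of the first peak to the end of the last. The gene names attached to them are background from general knowledge of the mouse genome. They were not read from an annotation of mm9, which was not used here, and no distance to a gene or place in an exon, intron or promoter was computed. Symbols are written as in the RefSeq gene table of GRCm38.p6. No sequence of a summit could be read. For orientation, upstream sequence of 3 of these genes is shown, the 250 bases before the annotated start on the gene's own strand in RefSeq GRCm38.p6, together with a mature microRNA encoded at another of the loci. Malat1 stands for the largest cluster. Btg1 and Pim1 were chosen because they hold a forkhead core, Pim1 in the second of its 2 annotated windows. Capitals mark GTAAACA on either strand in the genes and the seed, bases 2 to 8, in the microRNA.
Malat1: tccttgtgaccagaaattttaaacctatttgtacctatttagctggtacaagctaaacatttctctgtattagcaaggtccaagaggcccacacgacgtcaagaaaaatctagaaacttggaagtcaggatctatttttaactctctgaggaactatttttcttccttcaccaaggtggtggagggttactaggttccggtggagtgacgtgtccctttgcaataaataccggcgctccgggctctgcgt
Btg1: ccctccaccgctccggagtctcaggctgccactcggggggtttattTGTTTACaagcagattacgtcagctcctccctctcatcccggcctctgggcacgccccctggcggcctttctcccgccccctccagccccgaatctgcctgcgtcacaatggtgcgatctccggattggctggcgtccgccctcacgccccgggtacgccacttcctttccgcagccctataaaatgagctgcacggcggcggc
Pim1: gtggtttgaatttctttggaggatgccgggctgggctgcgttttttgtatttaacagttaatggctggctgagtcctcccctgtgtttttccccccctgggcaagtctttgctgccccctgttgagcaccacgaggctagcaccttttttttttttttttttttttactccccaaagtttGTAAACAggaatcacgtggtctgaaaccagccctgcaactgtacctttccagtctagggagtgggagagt
mmu-miR-21a-5p: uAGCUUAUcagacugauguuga

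Among the genes named below, 9 had at least 1 such upstream window (14 windows in all). GTAAACA, on either strand, was found in 3 of the 14, belonging to Btg1, Cald1 and Pim1, and TGANTCA, the AP-1 core, in 1, belonging to Cald1. Of all 32851 upstream windows of the same length, 3.17% held GTAAACA and 6.75% held TGANTCA. No window of Ahnak, Klf6, Malat1, Mnt, Per1 or Vmp1 held either motif. A match is a string of letters and not a measured site. Whether any summit lies in these windows was not determined.

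The largest cluster lay at chr19:5798615-5816387, in the stretch known to hold Malat1, a long noncoding RNA of nuclear speckles. In order along the chromosome its 11 signal values were 13.7, 17.7, 13.5, 13.3, 12.9, 63.5, 17.6, 26.5, 89.9, 91.6 and 21.5. The first 5 peaks were all weak, and the strong ones were the middle peak and 2 near the upper end. Its summed signal of 382 was the highest of all dense clusters, although 23 of them had a higher single peak. After 21.5 kb without a summit followed the third largest cluster, at chr19:5837461-5848748, in the stretch known to hold Neat1, the noncoding RNA on which paraspeckles are built. Its 9 values were 12.5, 13.6, 27.7, 42.2, 19.05, 33.2, 99.99, 12.8 and 21.5. A single peak stood out there, 2.37 times as high as the next.

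A second pair lay further along chromosome 19, where Ahnak, a very large scaffold protein, is known to lie. The cluster at chr19:9133002-9148950 held 9 summits, with values of 21.03, 19.5, 79.03, 40.3, 14.5, 28.8, 16.6, 30.9 and 21.3. The strong peak was near the lower end, and no value fell below 14.5. A cluster of 7 summits, with its first summit at 9064295, ended 61.0 kb before it, and 2 summits lay between them.

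Chromosome 5 carried the second and the fifth cluster by size, for which no gene is named. The cluster at chr5:143813445-143822689 held 9 summits within 8.79 kb, with values of 16.7, 14.99, 109, 40.2, 27.2, 14.03, 51.1, 16.02 and 12.5. Its strong peaks were inner ones, and the outermost were weak. The cluster at chr5:143579258-143585608 held 8 summits within 5.89 kb, with values of 156.5, 15.5, 38.0, 13.05, 13.04, 46.6, 18.7 and 44.5. Here the highest peak was the first, 3.35 times the next.

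Further clusters of 8 lay at the loci of Btg1, Vmp1 and Cald1. Btg1 encodes an antiproliferative protein. The cluster there, at chr10:96078595-96096573, was with 17.5 kb the longest of all, and its values were 11.4, 38.1, 17.4, 12.9, 76.7, 52.0, 16.0 and 24.03. Its first 3 summits lay within 675 bp, and the 2 strong ones followed several kilobases on. Vmp1 encodes a membrane protein of early autophagy, and the gene table places Mir21a, which encodes mmu-miR-21a-5p, next to it. The cluster at chr11:86383569-86401221 had values of 13.4, 21.997, 14.5, 27.1, 16.2, 14.8, 38.9 and 77.8. The strongest was the last, and a further dense cluster of 6 summits began 11.2 kb beyond it with 1 summit between. Cald1 encodes caldesmon, an actin-binding protein of contractile cells. The cluster at chr6:34657627-34672076 had values of 11.7, 42.7, 29.8, 34.7, 13.8, 15.2, 27.4 and 16.9. None of its peaks reached 50, and another cluster of 7 ended 66.5 kb before it with no summit between.

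The other 4 clusters of 8 summits among the 12 largest are given by position alone. At chr6:51112362-51123794 the values were 24.1, 48.6, 11.5, 20.4, 42.1, 16.0, 87.8 and 29.1, and at chr12:88225653-88241140 they were 21.9, 41.4, 26.2, 13.8, 90.1, 12.2, 15.3 and 16.5. Both had 1 peak of at least 50. At chr9:23493849-23508997 the values were 38.4, 29.997, 29.6, 30.2, 15.1, 12.5, 12.7 and 12.5, and at chr6:36757858-36770068 they were 14.2, 17.4, 20.5, 21.9, 18.9, 15.1, 33.3 and 17.2. Neither had a peak of at least 50, and on chromosome 9 the higher values were all in the lower part. One more cluster of 8, outside the 12 because of its low summed signal of 143, lay at chr13:5860553-5871066, where Klf6, an early-response zinc finger factor, is known to lie. It was singled out after its values were seen, which ran only from 11.7 to 24.9.

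**Figure D3:**
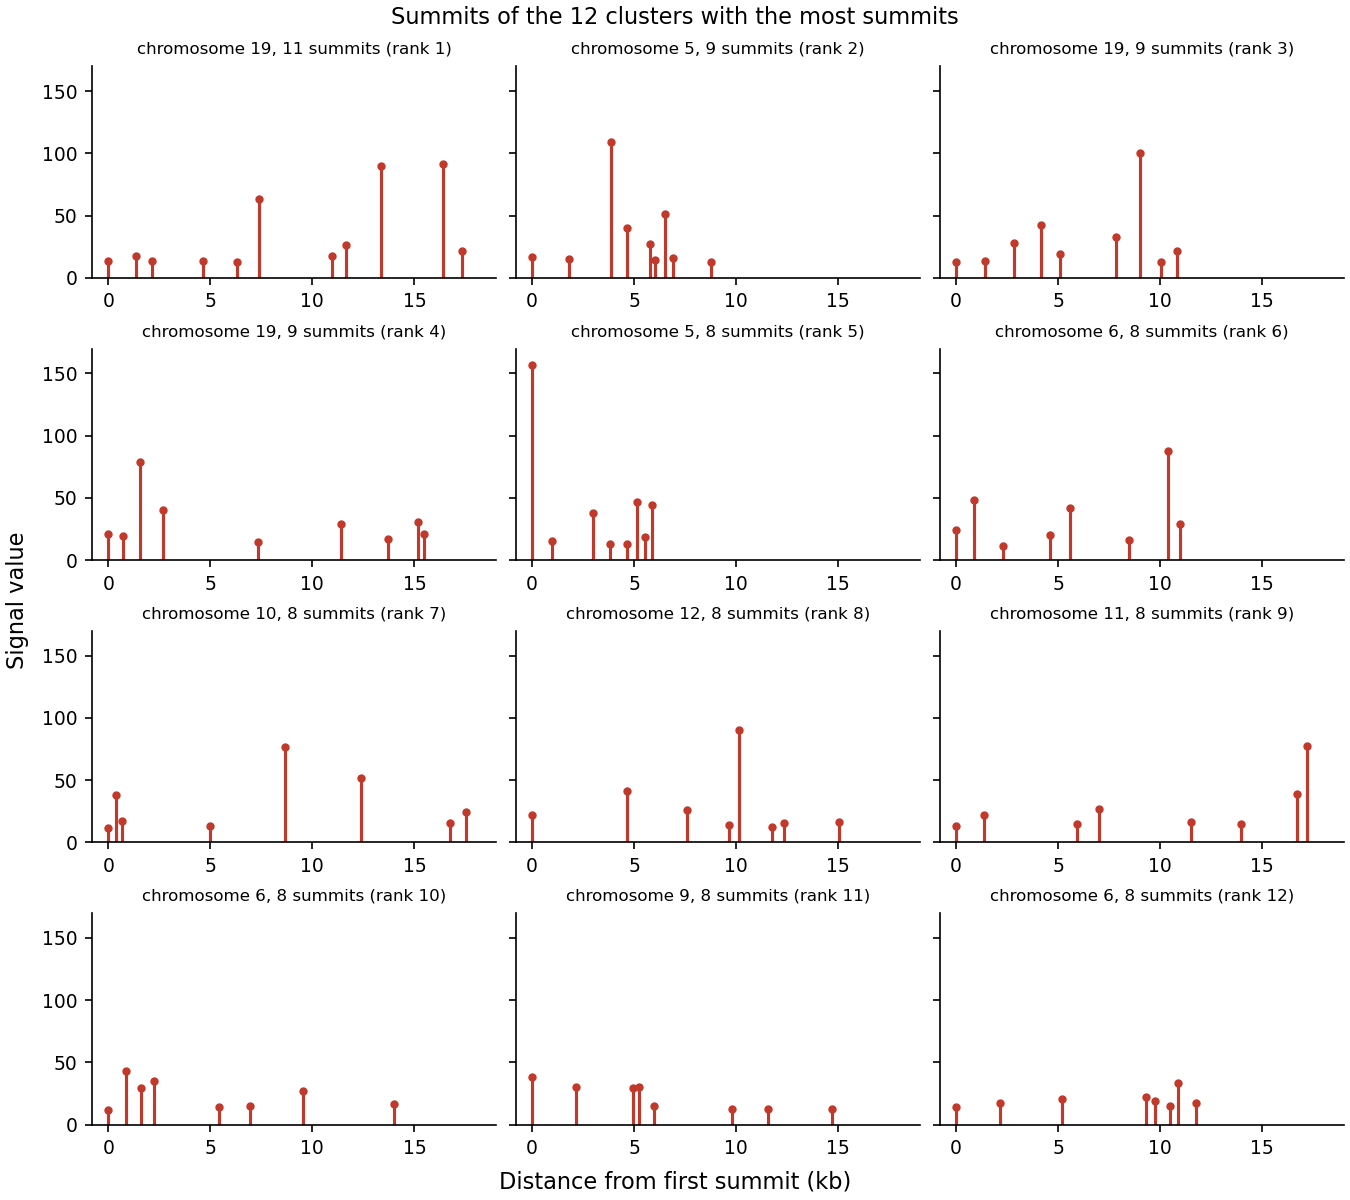
Signal value of each summit against its distance in kb from the first summit, for the 12 dense clusters with the most summits, all panels on the same axes and ranked by number of summits, then summed signal. Most clusters show 1 to 3 tall peaks among low ones, whereas ranks 10 to 12 have no peak of at least 50.

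Of the clusters named for a high summed or highest signal value, 4 lay outside the 12 largest. As a group, larger clusters did have higher highest peaks, as the highest of more values tends to be. The median highest peak was 43.4 in clusters of 5, 54.8 in clusters of 6 and 72.6 in clusters of 7 or more. The highest single peak in a dense cluster, with 276, opened the cluster at chr11:68908138-68911408, in the stretch known to hold Per1, a repressor of the circadian clock. It was followed within 2.81 kb by 4 peaks with values of 17.3, 17.6, 19.9 and 22.9, and stood 12.02 times above the next. The cluster at chr19:7410013-7416674 was alike in shape but reversed: 5 peaks of 11.9 to 14.1 preceded one of 263.5, which was 18.7 times the next and the most unequal of all dense clusters. The cluster at chr17:29622794-29630198, where the kinase gene Pim1 is known to lie, had values of 40.2, 16.5, 42.3, 12.03, 28.9 and, last, 217. In these 3 clusters 1 peak at an end of the run carried most of the signal.

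The shortest dense cluster had a different shape. It lay at chr11:74643620-74646662, where Mnt, a repressor that pairs with Max, is known to lie, and placed 5 summits within 2.58 kb. Its values were 163, 57.6, 60.2, 63.4 and 25.7. With 4 of 5 peaks of at least 50 and a lowest value of 25.7, it had the highest median of all dense clusters, 60.2, and the second highest summed signal, 370. Short span did not always go with strong signal. The third shortest cluster, at chr10:120128432-120132050, had a median of 17.8 and a highest peak of 52.1. With number of summits not held fixed, span and highest signal had a Spearman's rho of 0.079 over all dense clusters. Number of summits and highest signal had one of 0.17. Number of summits and summed signal had one of 0.47, where each further peak adds to the sum.

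**Figure D4:**
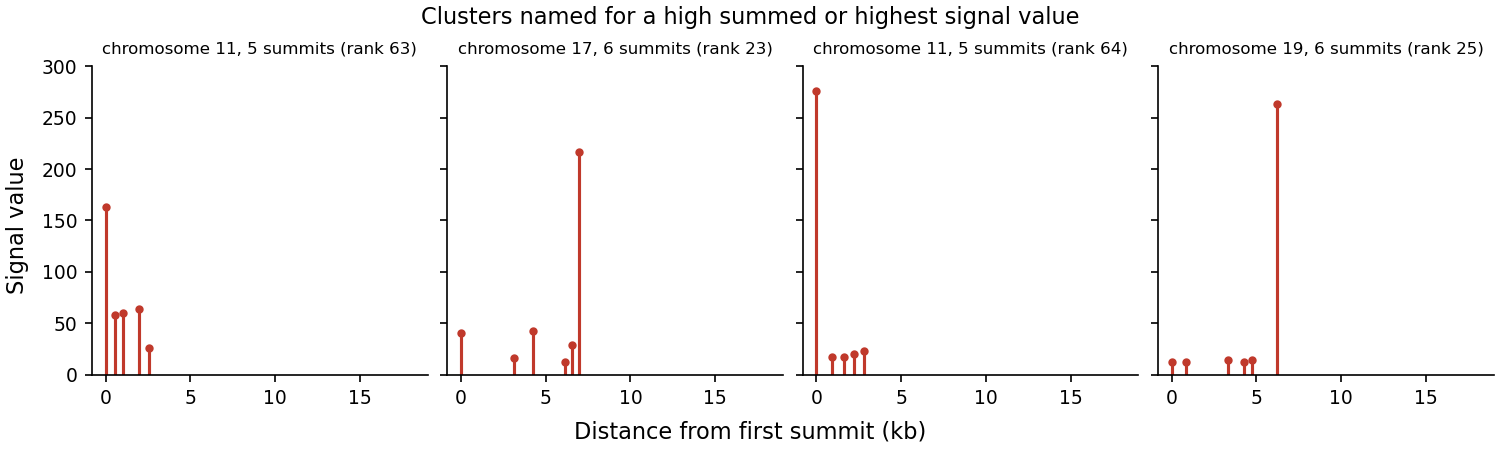
Signal value of each summit against its distance in kb from the first summit, for the 4 clusters outside the 12 largest that were named for a high summed or highest signal value, on common axes. In 3 panels a peak of 217 to 276 stands at an end and all others are below 50, though they reach 42.3 on chromosome 17. In the first panel 4 of 5 peaks exceed 50.

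At the other end stood clusters of weak peaks only. The lowest highest peak belonged to the cluster at chr6:91631965-91645457, whose 6 values were 11.4, 14.3, 12.5, 15.6, 12.7 and 13.4. At chr5:118960807-118967449, 7 summits had values of 12.4 to 19.5, and at chr13:70870136-70875846, 5 had values of 11.5 to 19.9. The other clusters of the 3 longest lay on chromosome 2. The one at chr2:36085761-36103734 had values of 12.2, 19.3, 16.6, 31.3, 29.3 and 49.98, and that at chr2:115887196-115905003 had 11.5, 11.8, 27.4, 12.5, 11.9997 and 13.5.

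Dense clusters were unevenly spread over chromosomes. Chromosomes 19 and 5 each held 16 and chromosome 6 held 15, together 37.0% of the dense clusters with 18.9% of the peaks. On chromosome 19, 7.75% of peaks were in dense clusters, on chromosome 5 4.83%, on chromosome 6 4.43% and on chromosome 17 3.61%, against 2.60% overall. Chromosome 7 held none among its 944 peaks, and chromosomes 9 and 12 held 2 each. Chromosome 15 carried 16.7 peaks per Mb and had 1.86% of them in dense clusters, whereas chromosome 5 carried 12.8 per Mb and had 4.83%. Across the 19 autosomes Spearman's rho between peaks per Mb and percent of peaks in dense clusters was 0.80. That relation is a description, since both measures come from the same positions. Median member signal ranged from 16.1 on chromosome 13 to 22.1 on chromosome 11, where all peaks had medians of 17.5 and 18.7.

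**Figure D5:**
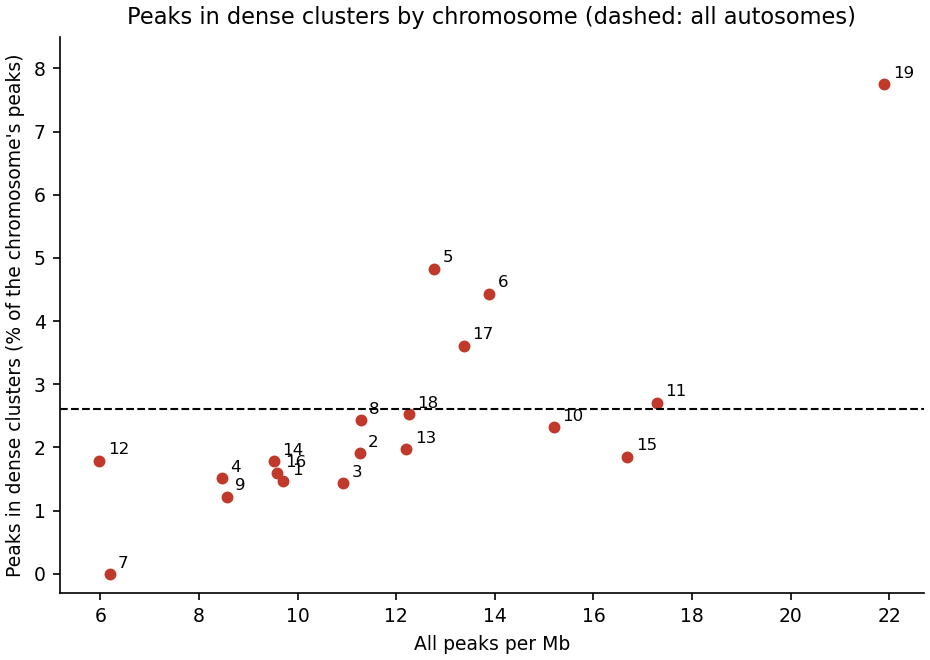
Percent of each autosome's peaks that lie in dense clusters against all peaks per Mb (highest peak end taken as length), 1 point per chromosome, with the autosomal value of 2.60% as a dashed line. Chromosome 19 stands at 7.75%, chromosomes 5, 6 and 17 lie above the line at moderate density, and chromosome 7 is at 0.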

How the data were processed

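Reads were aligned to mm9 with Bowtie, per the submitters' processing notes, and the peaks are those of Foxk1 against input, per the file headers. Neither source names the peak caller, its settings or any pooling of libraries. For each 460 bp peak the authors deposited a score, the signal value, whose scale is not stated, and a q-value on a linear scale. Depth per library is unknown, so no counting error could be given.

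Summits on chromosomes 1 to 19 were joined at distances of less than 5000 bp, and clusters of 5 or more were kept. The joining code was run on simulated positions that were laid out by the same joining rule. That is a check of the code only and says nothing about the clusters themselves. The text names the 12 clusters with the most summits (ties by summed signal), the 5 with the highest summed signal, the 5 with the highest peak, and the 3 longest, 3 shortest and 3 with the lowest highest peak. Members, naming rule, motifs and gene names were chosen with earlier results of these data known. With 1 list and no value per library, no test was made. Planned counts of clusters at promoters and gene lists and of motifs at summits need an mm9 annotation and sequence, which were not used here. Python 3.11.15, pandas 2.3.3, numpy 2.4.6, scipy 1.17.1 and matplotlib 3.10.9 were used.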

Additional observations from a re-analysis of the deposited data

How the results depend on the processing

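The number of dense clusters follows the limits that define them. Joining below 2000 bp left 25 clusters with 138 peaks, and joining below 10000 bp gave 364 with 2209. In the latter case the clusters at Vmp1 and Ahnak grew to 16 and 14 summits. The cluster at Malat1 kept 11 and was then no longer the largest. Asking for 4 or more summits gave 395 clusters with 1810 peaks, and 6 or more gave 62 with 413. Peaks at or above the autosomal median signal value alone formed 18 dense clusters with 92 peaks, of median 29.1 and with 25% at 50 or more, against 27.7 and 16.1% over all peaks kept. A q-value of at most 0.001 left 16 clusters with 83 peaks, of median 29.6 and with 27.7% at 50 or more, against 27.3 and 15.6% over all peaks kept. Both of these remove weak peaks by construction. Without chromosomes 5, 6 and 19, an alternative chosen after seeing the data, 80 clusters with 448 peaks remained, with 10.3% of members at 50 or more against 7.62% of all. Counting summits less than 500 bp apart as 1 gave 93 clusters with 533 peaks and all of the 12 largest were still dense. Those on chromosome 5 then fell from 9 and 8 summits to 6 and 5, so their rank by size rested on closely spaced summits. The cluster at Malat1 kept 11. Of these 12, 4 were still dense when joined below 2000 bp, at or above the median signal value, or at a q-value of at most 0.001; the cluster at Malat1 was no longer dense in the first case and had 5 and 6 summits in the other two. With X included nothing changed. The median signal value of members stayed between 18.9 and 19.7 under every alternative that kept weak peaks. Other promoter distances and motif windows were not run because positions at genes and motifs at summits were not computed. No paired analysis was possible because values per library were not analysed here, so no replicate could be left out either.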

Other observations

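Most dense clusters had no other near them. Of the 127, 12 formed 6 pairs less than 100 kb apart, with 3 of these pairs on chromosome 19, 2 on 6 and 1 on 11. In all, 20 neighbouring pairs, made up of 35 clusters, were less than 1000 kb apart. The closest pair lay on chromosome 11 with 11.2 kb between them, and on chromosome 19 a pair with first summits at 53384970 and 53478784 lay 90.1 kb apart with 4 summits between. The former of that pair placed 7 summits within 3.71 kb, the shortest span of any cluster of 7 or more. On X, which the rule left out, the largest of the clusters among 569 peaks held 4 summits.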
